A study of Mus musculus with 6 samples.

Results

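The genes described here encode the beta subunits of the sodium-potassium pump (Atp1b1, Atp1b2 and Atp1b3) and 4 members of the FXYD family of pump regulators (Fxyd1, Fxyd2, Fxyd6 and Fxyd7). They were found by their symbols, and all 7 are in the deposited table of 23337 gene symbols. The set was chosen by symbol with the measured difference between Sox6+ and Sox6- neurons already known, and the normalized read counts of these 6 libraries stood behind that choice. The values of the 7 genes in that comparison are therefore a description, and calls that a fit over all genes makes among them are not evidence of a difference. RNA came from dopaminergic neurons sorted out of the SNc, the substantia nigra pars compacta, a midbrain nucleus that innervates the dorsal striatum. The first group was neurons that express the transcription factor Sox6, collected by flow cytometry on GFP (Sox6+). The second was neurons sorted on mCherry, which do not express it (Sox6-). All mice were adults of the strain C57BL/6 and carried the same 3 alleles, Sox6-FSF-Cre, Th-2A-Flpo and RC-Frepe, so that recombinases under Sox6 and Th (tyrosine hydroxylase) decided the reporter colour. Each group had 3 libraries, with the numbers 103, 825 and 1211 in both. The labels do not give the animals behind a library, so the spread between libraries may be technical, and every p-value measures that spread alone.

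The sodium-potassium pump moves sodium out of the cell and potassium into it at the cost of ATP, and so restores the gradients that action potentials run down. An alpha subunit carries the ions and splits ATP, and a beta subunit, a glycoprotein, is needed for the alpha subunit to fold and reach the membrane. A small single-pass FXYD protein can join the pair and alter its affinity for ions. Nigral dopaminergic neurons fire spontaneously and have large axonal arbors, which places a steady load on the pump.

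The family takes its name from a short signature of phenylalanine, any residue, tyrosine and aspartate. The coding sequence around that signature is shown because it is what the 4 FXYD genes share. Each line gives 60 bases of coding sequence from a GENCODE M21 transcript (GRCm38), 5′ to 3′, with the 12 bases of the signature codons in capitals.
Fxyd1: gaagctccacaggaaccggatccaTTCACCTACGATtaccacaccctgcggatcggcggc
Fxyd2: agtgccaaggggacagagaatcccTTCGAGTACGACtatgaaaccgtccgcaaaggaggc
Fxyd6: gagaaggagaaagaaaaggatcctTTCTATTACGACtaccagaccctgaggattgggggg
Fxyd7: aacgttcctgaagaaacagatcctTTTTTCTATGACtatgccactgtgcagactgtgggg
Aligned on the capitals without gaps, Fxyd1 and Fxyd6 were the most alike of the 6 pairs, with 39 of 60 bases identical, and Fxyd2 and Fxyd7 the least, with 28. The signature codons are split by an intron at the same place in all 4 genes, after the first 10 of the 12 bases. In Fxyd6 the signature runs from 45390663 to 45390778 on the plus strand of chromosome 9, across the junction of exons 3 and 4. The 3 other genes of the family, Fxyd3, Fxyd4 and Fxyd5, have the same split after 10 bases.

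Values are read counts per gene that the authors divided by a size factor for each library. The 6 libraries held from 10397924 to 12952768 reads in genes and from 13429 to 15043 genes with a read. Sox6 lay at 840.5, 461.2 and 389.0 in Sox6+ libraries 103, 825 and 1211, against 103.6, 18.1 and 36.2 in the Sox6- libraries of the same numbers. Sox6+ library 825 stood apart from the other 5 libraries on the first principal component. The summed level of 12 microglia and macrophage markers was 28327.4 in it and at most 77.9 in any other library. Lyz2 alone made up 26494.1 of the 28327.4. Genes of dopaminergic identity were abundant as a sum of 14 markers in every library, but unequally. Their sum was 106492.1, 206533.4 and 179297.4 in Sox6+ libraries 103, 825 and 1211, against 44103.2, 132689.6 and 39301.0 in the Sox6- libraries. In bulk libraries, fewer cells of a type and less RNA per cell cannot be told apart.

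Among the 7 genes, Fxyd6 had the clearest separation of the groups. Fxyd6 encodes phosphohippolin, a brain FXYD protein that binds the pump. It lay at 2452.5, 1806.0 and 1880.6 in Sox6+ libraries 103, 825 and 1211, against 5761.9, 5026.3 and 7735.7 in Sox6- libraries 103, 825 and 1211. The groups did not overlap, and the lowest Sox6- library was above the highest Sox6+ library by more than the whole spread of the Sox6+ group. The mean was 2046.3 ± 353.7 in Sox6+ and 6174.6 ± 1401.1 in Sox6- neurons (SD, n = 3 each), a ratio of Sox6+ over Sox6- means of 0.331. On the scale of log2(value + 1) the difference, Sox6+ minus Sox6-, was -1.58. Between libraries of the same number it was -1.23, -1.48 and -2.04 for 103, 825 and 1211. In the authors' deposited table, where the fold change runs the other way (Sox6- over Sox6+), Fxyd6 had a log2 value of 1.593 with a standard error of 0.212.

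Markers of GABAergic neurons were set beside Fxyd6. The marker lists were chosen with earlier results of these data known, so calls among them are a description. The sum of 7 such markers was 9512.0, 765.2 and 3308.3 in Sox6+ libraries 103, 825 and 1211, against 18207.5, 5290.1 and 13929.2 in the Sox6- libraries. In each number the Sox6+ library had the lower sum, but the groups overlapped, since Sox6+ library 103 exceeded Sox6- library 825. Sst, the neuropeptide somatostatin, lay at 1.97, 0.0 and 0.0 in Sox6+ libraries 103, 825 and 1211, against 3958.3, 3164.2 and 5814.1 in the Sox6- libraries, and was the 1 marker of the 7 past the limma threshold, with an adjusted p of 3.31e-05. Within the Sox6- group Sst had the same order of libraries as Fxyd6, and the sum did not. All 7 markers had a negative log2 difference, but not the same pattern. Gad1 lay at 4797.5 in Sox6+ library 103 and 508.6 in Sox6- library 825. Pvalb was higher in Sox6+ libraries 103 and 1211, at 400.5 and 868.7, than in Sox6- libraries 103 and 1211, at 60.4 and 128.0. Sox6- libraries 103 and 1211 had the highest GABAergic sums and the highest Fxyd6 values. They also had the lowest sums of dopaminergic markers, at 44103.2 and 39301.0. The part of GABAergic or dopaminergic neurons in the Fxyd6 values was not tested.

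A limma fit over all 13175 tested genes placed 0.304% of them past an adjusted p of 0.05, 0.175% lower and 0.129% higher in Sox6+ neurons. Of the 7 genes it placed Fxyd6 there, and no longer did so without Sox6+ library 825, Sox6+ library 1211 or Sox6- library 1211, with limma adjusted p of 0.0641, 0.0738 and 0.121 and log2 differences of -1.50, -1.53 and -1.41. Since the genes were chosen with this comparison known, these calls are listed as a description and nothing is read from them. All 7 genes passed the filter on low values, a mean of at least 10. In the authors' deposited table, 2.83% of the genes with an adjusted p were under 0.05. On reads recovered from the values, edgeR called 0 of the 7 and 0.0455% of all genes, and DESeq2 called Fxyd6 and 3.14% of all genes. A limma fit that takes libraries of the same number as blocks called Fxyd6 and Atp1b2, and 2.03% of all genes.

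Fxyd7 encodes a brain-specific FXYD protein. It lay at 1373.2, 1356.2 and 1616.3 in Sox6+ libraries 103, 825 and 1211, against 1149.3, 2188.3 and 1830.8 in the Sox6- libraries. The Sox6- libraries held both the lowest and the highest value, so the groups overlapped. The mean was 1448.6 ± 145.5 in Sox6+ and 1722.8 ± 527.9 in Sox6- neurons (SD, n = 3 each), and the log2 difference was -0.20. It was -0.47 without Sox6- library 103 and -0.01 without Sox6- library 825.

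Fxyd2, the gamma subunit best known from the kidney, and Fxyd1, phospholemman, a regulator best known from heart and skeletal muscle, were near the bottom of the range. Fxyd2 lay at 66.1, 46.7 and 29.6 in Sox6+ libraries 103, 825 and 1211, against 74.8, 142.0 and 72.3 in the Sox6- libraries. The groups did not overlap, but the gap was narrow: Sox6+ library 103 had 67 reads, with an exact Poisson 95% interval of 51.2 to 83.9 normalized counts, and Sox6- library 1211 had 78 reads, with an interval of 57.2 to 90.3. The log2 difference was -1.01. Fxyd1 lay at 11.8, 0.0 and 15.7 in Sox6+ libraries 103, 825 and 1211, against 7.67, 34.2 and 81.6 in the Sox6- libraries. Its groups overlapped through number 103, where the Sox6+ library was the higher. The absence of reads in Sox6+ library 825 allows a level of up to 3.42 normalized counts, taking 3 reads as the limit for a count of 0. The log2 difference of Fxyd1 was -2.29, and it was -1.0 without Sox6+ library 825. These intervals and limits cover counting error only.

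Of the beta subunits, Atp1b1 encodes beta1, the main beta subunit of neurons. It lay at 43520.4, 36702.5 and 43239.0 in Sox6+ libraries 103, 825 and 1211, against 41987.8, 33220.0 and 31825.9 in the Sox6- libraries. The groups overlapped, with Sox6- library 103 among the Sox6+ values. The mean was 41154.0 ± 3857.7 in Sox6+ and 35677.9 ± 5508.8 in Sox6- neurons (SD, n = 3 each), a ratio of 1.15. The Sox6+ library was the higher in all 3 numbers, by 0.05, 0.14 and 0.44 on the log2 scale for 103, 825 and 1211. The log2 difference of the group means, 0.21, was 0.34 without Sox6- library 103 and 0.14 without Sox6- library 1211. Atp1b1 overlaps Nme7 on the opposite strand, and the strand setting of the authors' counting is not given in the sources used here.

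Atp1b3 encodes beta3, an isoform found in many tissues. It lay at 3799.1, 3855.6 and 4797.0 in Sox6+ libraries 103, 825 and 1211, against 3007.6, 3860.1 and 2930.7 in the Sox6- libraries. The groups overlapped by the number 825, whose libraries had nearly the same level. The mean was 4150.6 ± 560.6 in Sox6+ and 3266.1 ± 515.8 in Sox6- neurons (SD, n = 3 each), a ratio of 1.27 and a log2 difference of 0.35.

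Atp1b2 encodes beta2, first described as an adhesion molecule on glia and also present in neurons. It lay at 1298.3, 378.0 and 742.1 in Sox6+ libraries 103, 825 and 1211, against 1717.2, 894.3 and 1793.7 in the Sox6- libraries. The groups overlapped, since Sox6+ library 103 exceeded Sox6- library 825, although the Sox6+ library was the lower in all 3 numbers, by -0.40, -1.24 and -1.27 on the log2 scale. The mean was 806.1 ± 463.4 in Sox6+ and 1468.4 ± 498.7 in Sox6- neurons (SD, n = 3 each). Within the Sox6+ group its coefficient of variation was 57.5%, against 9.37% for Atp1b1 and 13.5% for Atp1b3. The log2 difference was -0.97, and -0.51 without Sox6+ library 825.

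The GABAergic marker sum was also set beside Atp1b2. In both groups the library of number 825 was the lowest for the marker sum and for Atp1b2. Gad1 and Gad2, the enzymes of GABA synthesis, were at 0 in Sox6+ library 825. Their part in the Atp1b2 values was not tested. Of 14 astrocyte markers, Gja1 and Gjb6 were at 0 in all libraries and Aqp4 had reads in Sox6+ library 1211 alone, at 4.62. The sum of the 14 ranged from 566.3 to 1108.9 in Sox6+ and from 474.9 to 714.0 in Sox6- neurons, most of it Slc1a2, a glutamate transporter that some neurons also express.

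**Figure D1:**
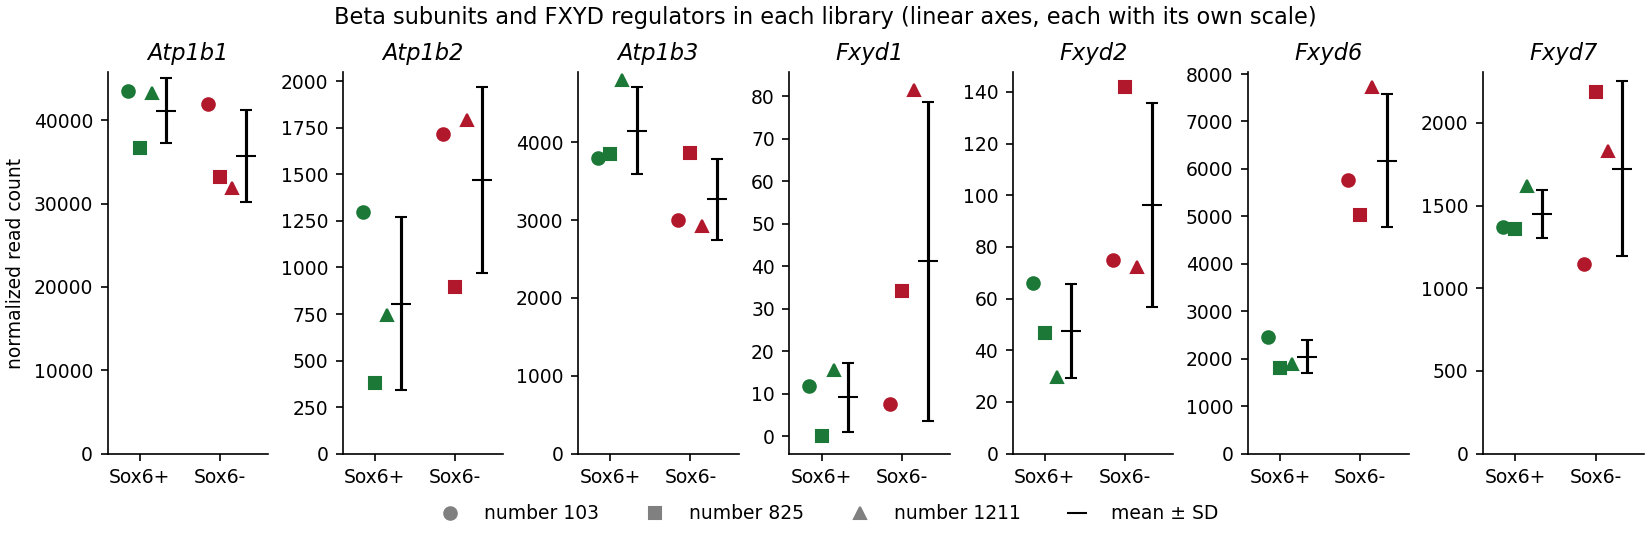
Normalized read count of each beta subunit and FXYD gene in the 3 Sox6+ (green) and 3 Sox6- (red) libraries, on linear axes with a scale for each gene; marker shapes give the library number and black bars the mean ± SD (n = 3). The 3 Sox6+ values of Fxyd6 lie between 1806.0 and 2452.5, below all Sox6- values, while both groups of Fxyd7, Atp1b1 and Atp1b3 share a range.

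Of the 7 genes, 5 had a negative and 2 a positive log2 difference, with a median of -0.97, beside a median of -0.02 over all tested genes. All 4 FXYD genes and Atp1b2 had the negative sign, and Atp1b1 and Atp1b3 the positive sign. The groups did not overlap for 2 of the 7, Fxyd2 and Fxyd6, both lower in Sox6+ neurons, and for 9.19% of all tested genes on that side, 7.86% on the other and 17% on either. Nothing is read from these counts, since the comparison was known when the genes were chosen.

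The levels of the 7 genes were compared with one another as normalized counts per kb, using the union of a gene's exons in GENCODE M21. Their order was not used to choose them. Atp1b1 was the most abundant, at 12468.7 ± 1689.3 normalized counts per kb over the 6 libraries (SD, n = 6). Fxyd7 followed at 2288.1 ± 544.7 per kb, then Atp1b3 at 1552.3 ± 286.0 per kb and Fxyd6 at 1000.8 ± 593.8 per kb. Atp1b2, at 278.4 ± 137.8 per kb, lay above Fxyd2, at 18 ± 9.59 per kb, and Fxyd1, at 11.5 ± 13.7 per kb. The order was the same within each group but for Fxyd6 and Atp1b3: in Sox6+ neurons Fxyd6 averaged 498.3 per kb and Atp1b3 1737.4 per kb, and in Sox6- neurons Fxyd6 averaged 1503.4 per kb and Atp1b3 1367.1 per kb.

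Each pair of neighbours in that order was tested by the log2 ratio within a library, with an exact two-sided sign-flip permutation test over 6 libraries, adjusted over the 6 pairs. The order that set the pairs came from the same 6 libraries, so the pairs were not chosen independently of the values tested. The test counts the 6 libraries as independent, but those of the same number may not be. The labels do not give the animals, and in deviations from the group mean every library correlated best with its own number. If such libraries are not independent, the p-values below are too small, and passing the threshold cannot be relied on. Atp1b1 exceeded Fxyd7 by 2.47 ± 0.50 on the log2 scale (SD, n = 6) in 6 of 6 libraries, with an exact p of 0.0312, the smallest that 6 libraries allow, and an adjusted p of 0.0469. The same p and adjusted p held for Fxyd7 over Atp1b3 (0.55 ± 0.39), Fxyd6 over Atp1b2 (1.80 ± 0.59) and Atp1b2 over Fxyd2 (3.91 ± 0.88), each in 6 of 6 libraries by the exact test. Atp1b3 and Fxyd6 were not separated, with a mean log2 ratio of 0.84 ± 1.13 and an adjusted exact p of 0.188. That SD includes the difference between the groups, so the 2 genes cannot be called alike in level. Atp1b3 was the higher in the 3 Sox6+ libraries and in Sox6- library 825, and Fxyd6 in Sox6- libraries 103 and 1211. Fxyd2 and Fxyd1 were not separated either, at 1.43 ± 1.98 with an adjusted exact p of 0.15. With the longest transcript in place of the exon union, the order of the means was the same, Fxyd7 exceeded Atp1b3 in 5 of 6 libraries, and none of the 6 pairs was past the threshold after adjustment. With the shortest coding transcript Fxyd6 came above Atp1b3, and again none of the 6 pairs passed.

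Within the beta family, Atp1b1 took from 86.5% to 88.1% of the normalized counts per kb in Sox6+ and from 85.5% to 89.0% in Sox6- libraries. Atp1b3 took from 9.92% to 12.4% in Sox6+ and from 8.22% to 12.8% in Sox6- libraries. Atp1b2 took 1.98%, 0.68% and 1.12% in Sox6+ libraries 103, 825 and 1211, against 2.75%, 1.74% and 3.66% in the Sox6- libraries. The groups overlapped in the share of each beta subunit. With the shortest coding transcript as the length, Atp1b1 took from 95.6% to 96.2% in Sox6+ and from 93.9% to 95.4% in Sox6- libraries, and these ranges did not overlap.

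Within the 4 FXYD genes, the share of Fxyd6 was 23.0%, 18.3% and 16.3% of the normalized counts per kb in Sox6+ libraries 103, 825 and 1211, against 45.5%, 27.6% and 41.1% in the Sox6- libraries. Fxyd7 took from 76.2% to 83.2% in Sox6+ and from 53.8% to 71.2% in Sox6- libraries, and Fxyd1 and Fxyd2 at most 0.815% each. The ratio of Fxyd6 to Fxyd7 per kb was 0.301, 0.225 and 0.196 in Sox6+ libraries 103, 825 and 1211, against 0.846, 0.388 and 0.713 in the Sox6- libraries. With the longest transcript as the length, Fxyd6 exceeded Fxyd7 in Sox6- libraries 103 and 1211, at ratios of 1.47 and 1.24. It stayed below Fxyd7 in the 3 Sox6+ libraries, at 0.524, 0.391 and 0.341, and in Sox6- library 825, at 0.674. Which of them is the more abundant in Sox6- neurons therefore turns on the length used.

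**Figure D2:**
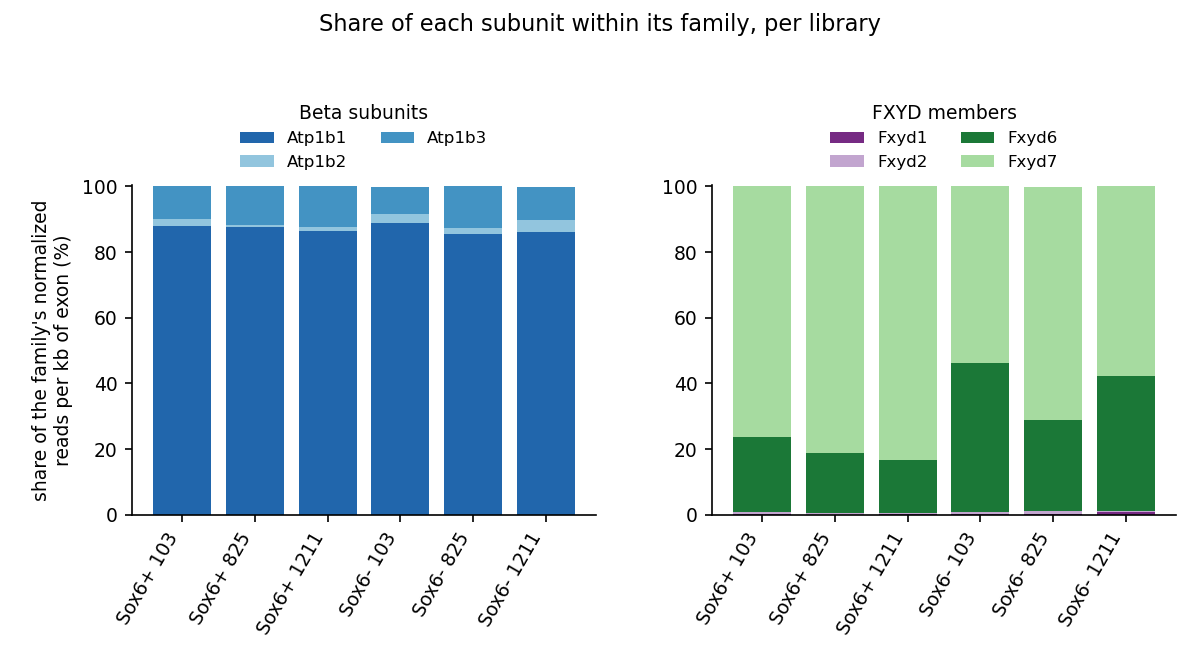
Share of each subunit in the summed normalized reads per kb of exon of the beta subunits, or of Fxyd1, Fxyd2, Fxyd6 and Fxyd7, in percent, for each Sox6+ library (left) and Sox6- library (right). The FXYD bars leave out Fxyd5, which lay at 780.0 normalized counts in Sox6+ library 825. Fxyd6 takes 16.3% to 23.0% of the FXYD bars in Sox6+ and 27.6% to 45.5% in Sox6- libraries, while Atp1b1 fills most of the beta bar of every library.

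The FXYD genes sit in clusters. Fxyd6 (45370185 to 45396159) and Fxyd2 (45399669 to 45410278) follow each other on the plus strand of chromosome 9, with 3510 bases between them. Fxyd7 (31042513 to 31051467) and Fxyd1 (31051678 to 31057199) lie on the minus strand of chromosome 7, with 211 bases between them, and Fxyd5 lies 32 bases from the other end of Fxyd7. Neighbours differed widely in level and pattern: Fxyd6 had 19338 reads in the Sox6- libraries together and Fxyd2 had 297. Fxyd5 lay at 780.0 in Sox6+ library 825, where Fxyd7 lay at 1356.2, the lowest of the Sox6+ values, and Fxyd1 at 0.0. Tmprss13, the coding gene before Fxyd6, and Lgi4, the coding gene after Fxyd1, were at 0 in all 6 libraries. Dscaml1, the coding gene after Fxyd2, ranged from 3.4 to 45.4 in Sox6+ and from 22.2 to 24.0 in Sox6- libraries. Dpt and Shbg, beside Atp1b1 and Atp1b2, were at most 3.8 and 0.9 in any library. The beta subunit genes are spread over the genome. Atp1b1 lies on chromosome 1 from 164437109 to 164458355, Atp1b2 on chromosome 11 from 69599736 to 69605942 and Atp1b3 on chromosome 9 from 96332655 to 96364442, all on the minus strand. Nme7, the gene that overlaps Atp1b1, lay at 2612.3, 1565.7 and 2346.3 in Sox6+ libraries 103, 825 and 1211, against 2720.7, 1668.7 and 1863.2 in the Sox6- libraries. Rnf7, the coding gene after Atp1b3, ranged from 2042.8 to 2129.9 in Sox6+ and from 1721.1 to 2136.0 in Sox6- libraries.

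For each member with a mean of at least 50, the genes of most similar pattern were the 3 with the highest Pearson r of log2(value + 1) over the 6 libraries, among 9745 other genes. All points come from the same 6 libraries, and the r values are a description. For Fxyd6 they were Syn2, a synaptic vesicle phosphoprotein (r = 0.991), Kcnh7, an ERG-type potassium channel (r = 0.990), and Rcn1, a calcium-binding protein of the endoplasmic reticulum (r = 0.990). Kcnh7 lay at 14.8, 12.5 and 11.1 in Sox6+ libraries 103, 825 and 1211, against 131.4, 114.8 and 217.9 in the Sox6- libraries. Syn2 lay at 1101.9, 764.1 and 806.7 in Sox6+ libraries 103, 825 and 1211, against 2184.4, 1728.1 and 3126.4 in the Sox6- libraries, the same order of libraries within each group as for Fxyd6. For Atp1b2, 2 of the 3 were Tmpo, a nuclear lamina protein (r = 0.995), and Arid4b, a chromatin regulator (r = 0.994). Tmpo lay at 668.9, 240.3 and 398.3 in Sox6+ libraries 103, 825 and 1211, against 740.6, 477.3 and 755.9 in the Sox6- libraries. Like Atp1b2, it was lowest in number 825 in both groups.

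The nearest patterns to Atp1b1 were those of Cyb5r4, an oxidoreductase (r = 0.998), Mob4 (r = 0.988) and Lypla1, a thioesterase (r = 0.984). Those to Atp1b3 were Rreb1, a zinc finger transcription factor (r = 0.994), Fgf13, an intracellular FGF that binds sodium channels (r = 0.993), and Tspan6, a tetraspanin (r = 0.992). Fgf13 lay at 7128.6, 7433.4 and 10850.0 in Sox6+ libraries 103, 825 and 1211, against 3961.2, 6615.4 and 3750.6 in the Sox6- libraries. Sox6+ library 1211 was the highest for it, as for Atp1b3. For Fxyd7 they were Ptov1 (r = 0.989), Adi1, an enzyme of methionine salvage (r = 0.987), and Nsdhl, an enzyme of cholesterol synthesis (r = 0.979), and for Fxyd2 they were Phax, an export factor of small nuclear RNA (r = 0.989), Itfg2 (r = 0.968) and Phactr3 (r = 0.964).

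**Figure D3:**
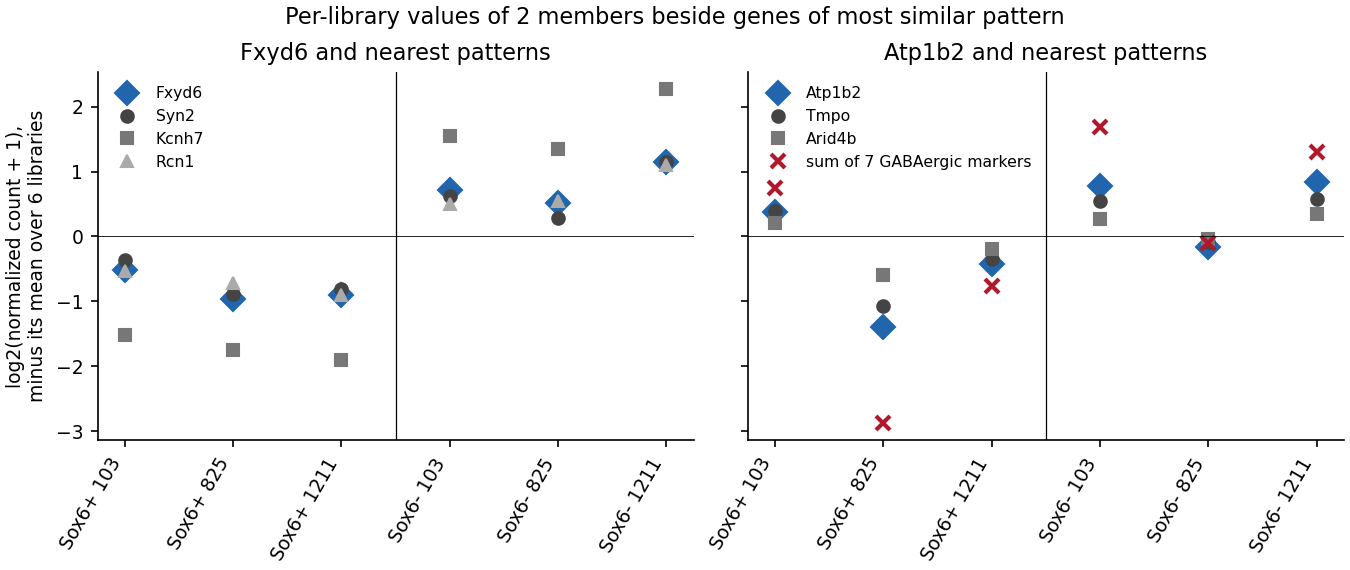
log2(normalized count + 1) in each library minus its mean over the 6 libraries, for Fxyd6 (left panel) and Atp1b2 (right panel) with genes of most similar pattern (3 for Fxyd6, 2 for Atp1b2) and, for Atp1b2, the summed level of 7 GABAergic markers; Sox6+ libraries stand left of the vertical line and Sox6- libraries right of it. Fxyd6 and its nearest genes lie below 0 in the 3 Sox6+ libraries and above it in the 3 Sox6- libraries, while Atp1b2 and the marker sum are lowest in number 825 within each group.

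Further pump genes, which are not among the 7 genes, were tested in the same fit over all genes. This list and those of transporters and regulators below were also chosen with earlier results of these data known. Calls among them are therefore a description. Of 15 other pump genes in the table, 9 were tested and 0 passed in either direction with limma. None of the 9 had an unadjusted p under 0.05, which 11.4% of all tested genes had, and edgeR and DESeq2 on reads recovered from the values also called 0. Of the tested genes, 5 had a positive and 4 a negative log2 difference, with a median of 0.14. Nkain1, whose product interacts with the beta1 subunit, was the 1 of the 9 whose groups did not overlap, beside 17% of all tested genes. It lay at 84.8, 95.7 and 100.7 in Sox6+ libraries 103, 825 and 1211, against 52.8, 59.4 and 64 in the Sox6- libraries, with a log2 difference of 0.67, a standard error of 0.384 and a limma adjusted p of 0.540. Of the rest of its family, Nkain2 and Nkain4 had positive differences of 0.18 and 0.28, and Nkain3 a negative one of -0.25.

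Fxyd5, a FXYD protein known as dysadherin that weakens cell adhesion, lay at 14.8, 780.0 and 7.39 in Sox6+ libraries 103, 825 and 1211, against 11.5, 21.1 and 17.6 in the Sox6- libraries. The 1 high value was in the library that also held macrophage transcripts, with Lyz2 at 26494.1, Tyrobp at 1035.1 and Cd68 at 387.2. Mrc1 and Csf1r were also highest there, at 322.3 and 58.1. Of the same list, C1qa, C1qb and Aif1 were at 0 in it, and P2ry12 was at 26.2, below 31.4 in Sox6+ library 1211. The part of macrophages in the Fxyd5 value was not tested. Fxyd4, a regulator of the kidney collecting duct, had 2 reads in the Sox6+ and 9 in the Sox6- libraries, and Fxyd3 and Atp1b4 were at 0 in all 6. The proton-potassium pump genes Atp4b and Atp12a were also at 0, and Atp4a ranged from 0.0 to 52.4 in Sox6+ and from 9.27 to 40.3 in Sox6- libraries. Atp1a4, the alpha4 subunit of sperm, had 1 read in all.

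**Figure D4:**
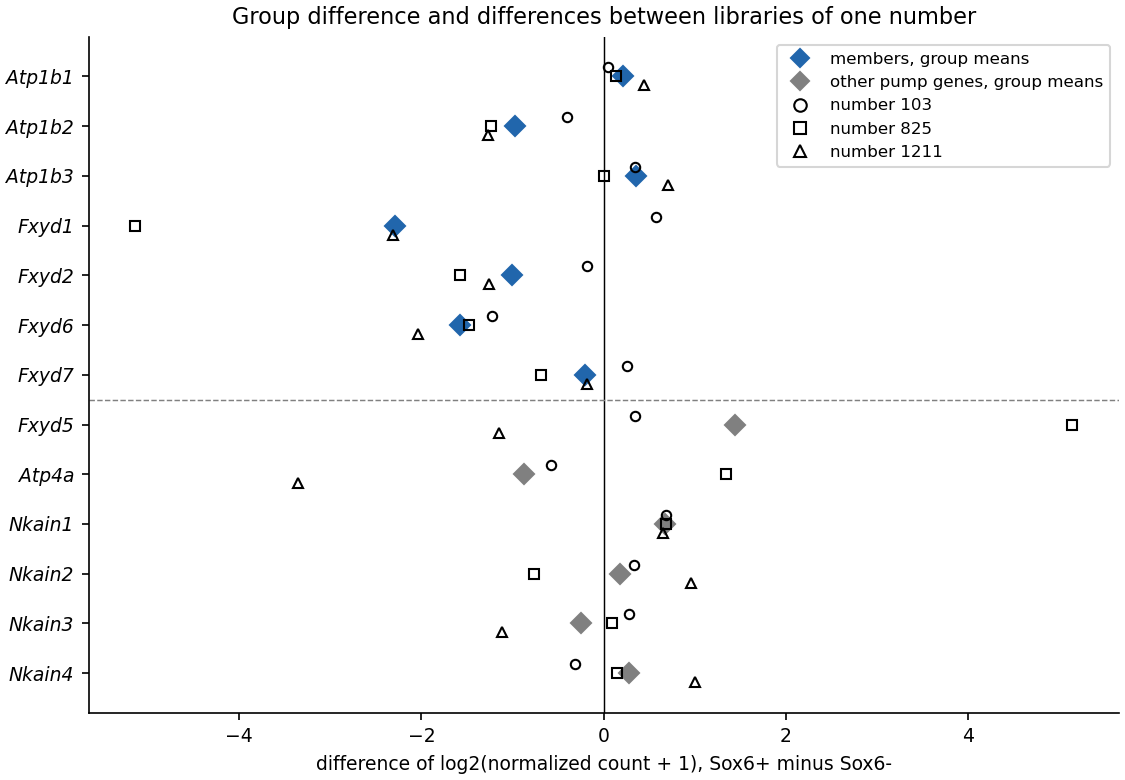
Difference of log2(normalized count + 1), Sox6+ minus Sox6-, for the 7 genes (blue) and other pump genes tested (grey); diamonds are differences of group means and open symbols are differences between the libraries of one number. The 3 open symbols of Fxyd6 lie between -1.23 and -2.04 and those of Nkain1 near 0.67. Those of Fxyd1, Fxyd5, Fxyd7, Atp4a, Nkain2, Nkain3 and Nkain4 lie on both sides of 0, and Atp1b3 is at -0.0 in number 825.

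Transporters that work on the sodium gradient or share its ions were tested in the same fit. Of 36 listed, 29 were tested and 0 passed in either direction with limma. An unadjusted p under 0.05 was found for 5 of them, beside 11.4% of all tested genes. Of the 29, edgeR called 0, and DESeq2 called 2 higher, Slc24a2 and Slc8a1, and 1 lower, Slc1a3, where it called 3.14% of all genes. Slc24a2, a potassium-dependent sodium-calcium exchanger, lay at 722.1, 959.9 and 825.2 in Sox6+ libraries 103, 825 and 1211, against 465.3, 377.6 and 474.8 in the Sox6- libraries, with a log2 difference of 0.92 and a limma adjusted p of 0.110. Slc8a1, the sodium-calcium exchanger NCX1, lay at 2229.5, 1553.2 and 1828.8 in Sox6+ libraries 103, 825 and 1211, against 871.1, 1406.9 and 817.1 in the Sox6- libraries, with a log2 difference of 0.89 and a limma adjusted p of 0.190. For both the groups did not overlap, as for 5 of the 29 and 17% of all tested genes. Slc1a3, a glial glutamate transporter, was at 0 in the 3 Sox6+ libraries and in Sox6- library 825, and lay at 75.8 and 24.1 in Sox6- libraries 103 and 1211. Of the 29 tested, 13 had a positive and 16 a negative log2 difference, with a median of -0.07.

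Kinases, ligases and scaffolds that act on the pump or its trafficking were tested as well. Of 28 listed, 25 were tested and 0 passed with limma, and 4 had an unadjusted p under 0.05, beside 11.4% of all tested genes. Of the 25, edgeR called 0, and DESeq2 and the limma fit with blocks each called 1, Prkca, as higher. Of all genes, DESeq2 called 3.14% and the fit with blocks 2.03%. Prkca, the protein kinase C alpha that phosphorylates pump subunits and phospholemman, lay at 1255.8, 1408.6 and 1333.5 in Sox6+ libraries 103, 825 and 1211, against 592.9, 790.5 and 405.3 in the Sox6- libraries. The groups did not overlap, as for 6 of the 25 and 17% of all tested genes. The log2 difference of 1.21, with a standard error of 0.239, had a limma adjusted p of 0.0854. Ppp1r1a, an inhibitor of protein phosphatase 1, averaged 1268.1 ± 172.6 in the Sox6+ and 939.3 ± 10.1 in the Sox6- group (SD, n = 3 each), with a limma adjusted p of 0.385. Of the 25 tested, 16 had a positive and 9 a negative log2 difference, with a median of 0.09.

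Marker lists of further cell types were read beside the FXYD genes. The sum of 10 oligodendrocyte markers was 2185.2 in Sox6+ library 825, most of it Mbp at 1943.8, and between 292.0 and 409.9 in the other 5 libraries. The sum of 7 ependymal and choroid plexus markers was 33.5, 10.2 and 5341.3 in Sox6+ libraries 103, 825 and 1211, against 55.6, 28.2 and 799.5 in the Sox6- libraries. Ttr was most of it in number 1211, at 4849.7 in the Sox6+ and 642.7 in the Sox6- library. Fxyd1 was highest in number 1211 in both groups, as that sum was, but in Sox6+ by 17 reads against 12 in library 103. Between the libraries of number 1211 the sum was higher in Sox6+, while Fxyd1 was higher in Sox6-, at 81.6 against 15.7. The part of ependymal and choroid plexus cells in the Fxyd1 values was not tested. The sum of 10 endothelial and mural markers was at most 42.7 in any library, with Cldn5, Cdh5 and Rgs5 at 0 in all. Of 7 markers of oligodendrocyte precursors, Pdgfra, Cspg4, Gpr17 and Olig2 were at 0 in all libraries, and the sum of the 7 was from 74.0 to 180.2 in Sox6+ and from 387.6 to 629.7 in Sox6- libraries. C1ql1 was from 5.92 to 38.8 in Sox6+ and from 373.2 to 594.5 in Sox6- libraries, with a limma adjusted p of 0.0172. Vcan, the other tested marker of that list, was higher in each Sox6+ library, at 143.0, 64.9 and 135.8 in Sox6+ libraries 103, 825 and 1211, against 14.4, 39.3 and 35.2 in the Sox6- libraries. Of 5 erythrocyte markers, 3 are in the table, with a sum of at most 2.01. Markers of the ventral tier of the SNc, 8 in all, summed to between 53426.1 and 91343.5 in Sox6+ and between 9195.5 and 23176.0 in Sox6- libraries. Aldh1a1 was most of that sum, from 45219.2 to 66304.8 in Sox6+ and from 7226.6 to 19548.7 in Sox6- libraries. The list includes Sox6, on which the sort rests, and Vcan, also counted among the precursor markers.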

How the data were processed

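Neurons were dissociated with papain, total RNA was isolated with a mirVana kit and stranded mRNA libraries were made, per the labels' protocols. Of the processing, the submitters' processing notes list the builds GRCm38 and mm10 and, as tools, STAR, HTSeq, DESeq2, cutadapt and FastQC. The sources used here give no versions or settings. The authors deposited 1 table with a normalized signal per gene and library, and with their own DESeq2 result: a log2 fold change (Sox6- over Sox6+) with its standard error, a test statistic (score), and raw and adjusted p-values. The deposited signal behaves as reads over a size factor: counted in steps of 1 read, 100.0% of values above 0 lay within 0.01 of a whole number, and these gave the reads. For Sox6- library 825 the step, 1.0071, is close to 1.

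Groups come from the sample titles. Genes with a mean of at least 10 (13175 genes) were fitted with limma (trend and robust moderation) on log2(value + 1), two-sided, without a block, with Benjamini-Hochberg adjustment at 0.05. A fold on that scale understates changes of low genes. On the recovered reads edgeR called 6 genes and DESeq2 called 408. Versions were Python 3.11.15 (scipy 1.17.1, numpy 2.4.6, matplotlib 3.10.9, pandas 2.3.3) and R 4.3.3 (DESeq2 1.42.0, edgeR 4.0.16, limma 3.58.1). Positions, exon lengths and coding sequences come from GENCODE M21. The members, the lists and the markers were chosen with earlier results of these data known. Named genes were the members, the other pump genes, the 2 smallest p-values of each other list, the 3 nearest patterns the chromosomal neighbours and the 2 most abundant markers of each list. Slc1a3 and further markers were chosen after their values were seen. Some genes that the rule names are not reported here.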

Additional observations from a re-analysis of the deposited data

How the results depend on the processing

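The log2 difference of each of the 7 genes kept its sign under all alternatives run. It moved by less than 1 SD of the replicates in all 91 comparisons, but many of these could not have shown more. Leaving out 1 of 3 libraries cannot move the difference by 1 such SD, and a block by number returns the same difference. Fxyd6 was no longer called with edgeR, without trend and robust moderation, and without Sox6+ library 825, Sox6+ library 1211 or Sox6- library 1211, and was called in 11 of 16 alternatives, a description for a gene chosen on this comparison. The count of all genes called was 17 higher and 23 lower in Sox6+ neurons. It was 34 and 35 with a pseudocount of 8, 7 and 14 without a filter, 30 and 39 with quantile normalization, 1 and 5 with edgeR, and 180 and 228 with DESeq2, and 4 were higher without trend and robust moderation. Leaving out 1 library gave from 0 to 59 higher and from 1 to 102 lower. The most were called without Sox6+ library 103 (59 and 102), and the fewest without Sox6- library 1211 (0 and 1), Sox6+ library 1211 (0 and 8) and Sox6+ library 825 (1 and 8), while 4 were lower without Sox6- library 825. The cause was not tested. With the library number as a replicate block, limma called 134 higher and 133 lower, Atp1b2 joined Fxyd6 among the 7, and 1 pump regulator, Prkca, was higher. Deviations from the group mean correlated at 0.268, 0.172 and 0.079 between libraries of number 103, 825 and 1211, and every library correlated best with its own number, a hint from the data and not from the labels. DESeq2 called 2 transporters higher and 1 lower, and 1 regulator higher. The groups of 2 of the 7 genes did not overlap, and of 2 to 5 genes when 1 library was left out, with 5 without Sox6- library 103 and 4 without Sox6- library 825, where 27.4% and 29.9% of all tested genes did not overlap (22.5% to 33.2% over the 6 libraries left out, 17% with all); fewer libraries overlap less often by construction. Of the 6 neighbouring pairs in level, 4 passed with the exon union, against 0 with the longest transcript and 0 with the shortest coding transcript, where 2 pairs kept their order in all libraries; leaving out 1 library left 4 such pairs each time, and no test was run there, since 5 libraries cannot reach 0.05. The exact tests of these pairs took libraries of the same number as independent, which the labels do not settle. Fxyd1 and Fxyd2, at 159 and 437 reads in all, are limited by depth.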
